A study of Mus musculus with 21 samples.

Results

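The PBS-treated SAMP8 mice are the saline arm of the series. They were chosen by their treatment label alone, which gave 12 of the 21 mice, 6 females and 6 males, with no measured value used. SAMP8 is the senescence-accelerated mouse prone 8 strain, an inbred line with early loss of memory that is used as a model of sporadic Alzheimer's disease. All 12 mice were SAMP8, and each received PBS, the vehicle, by subcutaneous injection every other day for 8 weeks, from 4 to 6 months of age. They carried no transgene, were tested for behaviour in the last 4 weeks, and were perfused with cold saline before the brain was frozen. RNA was read from tissue labelled as whole brain, by RNA sequencing. There was no mouse of another strain in this set, so the values describe SAMP8 at 6 months and not what sets the strain apart. No treatment contrast was made.

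The brain is a mosaic of regions and cell types, and a bulk library adds them up. Neurons supply most of the messenger RNA, astrocytes recycle glutamate, oligodendrocytes wrap axons in myelin and microglia are the resident immune cells. Some structures are small but express a few genes at very high levels. The choroid plexus secretes cerebrospinal fluid and the carrier protein transthyretin, hypothalamic nuclei make peptide hormones such as oxytocin and vasopressin, and the pituitary below them makes growth hormone. A gene of such a structure can differ many-fold between brains while the genes of the large cell types do not. In these bulk samples, fewer cells of a type and less RNA per cell cannot be told apart.

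The libraries held between 14917171 and 36207536 counts, with a median of 25193116. Counts were scaled by TMM (a factor per library that equalises most genes) and are given as CPM, a gene's share of a library's counts on the usual scale. The 30 pairs of libraries of the same sex all differed by far more than sampling noise, with a chi-square averaged over genes between 19.1 and 288 where sampling alone gives about 1. Mice 104 and 102 carried another form of library name in the table than the other 10, and they stood apart in small structural RNAs. Rn7sk, the 7SK RNA that restrains transcription elongation, was at 261 CPM in mouse 104 and 86.0 CPM in mouse 102, and between 1.62 and 11.4 CPM in the other 10. Yam1, which the annotation calls Gm42418 and which lies in a ribosomal RNA sequence, was at 11600 and 7230 CPM in these mice and between 189 and 888 CPM in the others. The values of both mice are given beside the genes in which they stand apart.

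Transcripts of the mitochondrial genome took 14.7% ± 3.69 (SD, n = 12) of all counts, from 9.33% in mouse 84 to 20.2% in mouse 90. The highest share was 2.17 times the lowest. Nuclear pseudogene copies of mitochondrial sequence took another 5.25% of counts on average, from 3.28% to 7.45%. How reads divide between the mitochondrial genome and these copies is uncertain, and so is the share of each. Of the 15 genes with the highest mean, 10 were of the mitochondrial genome, led by mt-Co1, a subunit of cytochrome c oxidase, with a mean of 44600 CPM and a range of 24100 to 72600 CPM. Another 4 of the 15 were nuclear pseudogene copies of mitochondrial sequence on chromosome 1 (Gm28437, Gm28661, Gm10925 and Gm29216), whose counts were split values in every mouse and are therefore uncertain. The remaining gene was Kif5a, the motor that carries cargo along axons, with a mean of 3670 CPM and a range of 2140 to 5270 CPM.

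Leaving out the mitochondrial genes and their copies, the leading genes by CPM beside Kif5a included Camk2n1 (an inhibitor of CaM kinase II), Eef1a1 (translation elongation), Fth1 (ferritin) and Snap25 (synaptic vesicle fusion). The mean levels of these 4 ran from 3350 CPM for Camk2n1 to 2460 CPM for Snap25. Mbp, myelin basic protein, followed at a mean of 2410 CPM with a range of 1860 to 3140 CPM. Glul, the astrocyte enzyme glutamine synthetase, was at a mean of 2030 CPM and varied little, from 1770 to 2380 CPM.

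Levels of different genes can be compared only per length. Per kilobase of the longest transcript, the order of the nuclear genes changed: Cst3, a secreted protease inhibitor, led with a mean of 1840 CPM per kilobase, followed by Eef1a1 with 1820 and the ribosomal protein gene Rplp1 with 1620. The lowest and highest mice were at 1150 and 3060 CPM per kilobase for Cst3 and at 634 and 3840 for Rplp1, so these neighbours in the order did not differ beyond their spread. Apoe, the lipid carrier of astrocytes, was at 992 CPM per kilobase, with a narrow range of 684 to 1140. All genes of the top 15 by mean level were the same 15 with another scaling and with the median in place of the mean.

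The label of whole brain was checked against region markers. Cerebellar genes were near 0 in most mice. Gabra6, the GABA receptor subunit of cerebellar granule cells, had 216 counts in mouse 73 and 128 in mouse 85, and between 1 and 10 counts in the other 10 mice. Cbln3, also of granule cells, was at 14.8 and 5.29 CPM in these mice and at 1.12 CPM or less in the others. Pcp2, a marker of Purkinje cells, had 86 and 95 counts in the same mice and at most 11 in any other. Fat2 followed with 48 and 98 counts, against at most 21. Summed over these genes, the level was 38.7 CPM in mouse 73, 13.7 CPM in mouse 85 and between 0.344 and 2.66 CPM in the rest.

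These 4 genes did not pass the filter on low counts. The other 12 of the 16 genes in the cerebellar list passed, among them Calb1, Itpr1 and Zic1, which forebrain regions also express, and their score had an SD of only 0.26. A score here is the mean over the list's genes of log2 CPM minus its mean over the 12 mice. Of the list for midbrain and hindbrain, 7 of 16 genes had a row in the table. Tph2, the serotonin-synthesising enzyme of the raphe, had 7 to 34 counts. Slc6a3, the dopamine transporter of midbrain neurons, had 82 counts in mouse 85 and between 3 and 23 in the others. The defining markers of the cerebellum are thus absent or nearly so in 10 of the 12 libraries, and the text below calls the tissue brain.

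**Figure D1:**
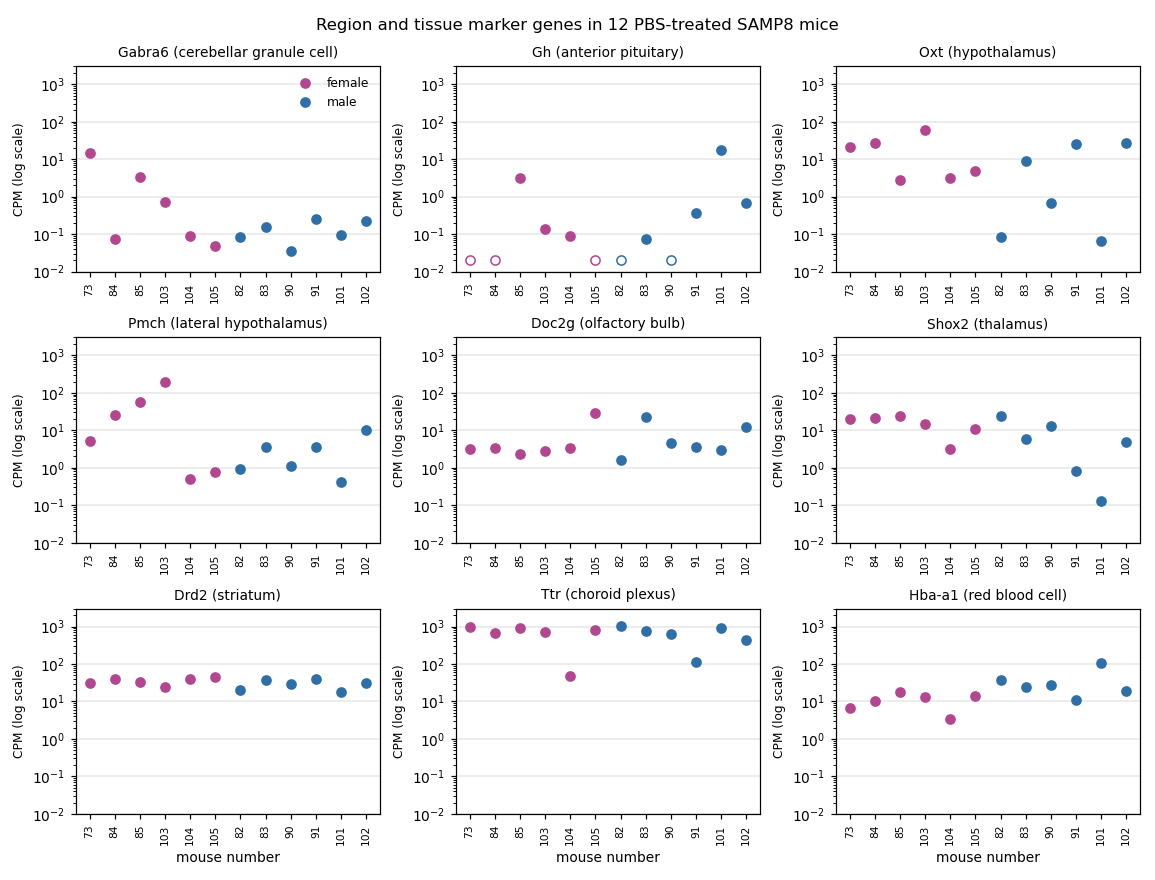
CPM on a log scale of 9 marker genes, with a panel for each gene and a point for each of the 12 mice (mouse numbers on the x axis, females in purple, males in blue). Open points at the foot of a panel are mice in which the gene is listed at 0. Gabra6 is high in mice 73 and 85, Gh in mice 101 and 85, Oxt and Pmch are lowest or nearly so in mouse 101, Doc2g is high in mice 105, 83 and 102, Ttr is low in mice 104 and 91, and Drd2 is nearly level.

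Genes of the pituitary were seen in a pair of brains. Gh, growth hormone, had 538 counts in mouse 101, 119 in mouse 85 and 24 in mouse 102, and 12 or fewer in the other 9, of which 5 were listed at 0. Prl, prolactin, had 202 counts in mouse 85 and 77 in mouse 101 and 14 or fewer elsewhere. Pomc, the precursor of corticotropin and also a gene of the hypothalamus, was highest in mouse 101 at 13.7 CPM and in mouse 103 at 7.70 CPM, with a median of 2.06 CPM. Mouse 85 thus had both pituitary and cerebellar transcripts, while in mouse 101, where pituitary transcripts were high, the cerebellar genes summed to 0.573 CPM, within the range of the mice other than 73 and 85.

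Sex-linked genes aside, the hypothalamus gave the widest spread of the lists scored. Its score ran from -2.14 in mouse 101 to 2.22 in mouse 103, with an SD of 1.32. Oxt, oxytocin, was lowest at 0.0637 CPM in mouse 101 and 0.0860 CPM in mouse 82, had a median of 6.87 CPM, and reached 61.7 CPM in mouse 103. Avp, vasopressin, ran from 0.159 CPM in mouse 101 through a median of 8.74 CPM to 42.7 CPM in mouse 91 and 41.8 CPM in mouse 103. Oxt and Avp are made by neighbouring neurons of the paraventricular and supraoptic nuclei, and their levels rose and fell together, with r = 0.944 over the 12 mice.

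Neurons of the lateral hypothalamus showed a different order of mice. Pmch, melanin-concentrating hormone, was at 199 CPM in mouse 103, 58.2 CPM in mouse 85 and 25.2 CPM in mouse 84, had a median of 3.64 CPM, and fell to 0.414 CPM in mouse 101, a 480-fold range. Hcrt, the precursor of the wake-promoting orexins, was at 15.9, 4.77 and 4.17 CPM in mice 103, 84 and 85, at 1.36 CPM in mouse 102 and at 0.372 CPM or less in the other 8. Mouse 85 was therefore high in Pmch and Hcrt but below the median in Oxt, at 2.76 CPM. Crh, corticotropin-releasing hormone, which the cortex also makes, had the smallest spread of the list, from 3.87 to 7.91 CPM, with an SD of 0.30 on the log2 scale.

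The genes whose levels were most like Avp over the 12 mice were Esr1 (the estrogen receptor, r = 0.957), Gpr165 (0.946), Oxt, Gpr101 (0.939), Celf6 and Fezf1 (0.938 each), Mttp, Ddc, Asb4 and Irs4 (0.922). Esr1 was at 0.859 CPM in mouse 101 and 7.07 CPM in mouse 103, a narrower range than that of Avp. Irs4, a docking protein of insulin signalling that the hypothalamus expresses, went from 0.0637 CPM in mouse 101 to 13.6 CPM in mouse 91. These r values describe the order of 12 libraries and carry no p.

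The promoters of Oxt and Avp are printed because these hormone genes were the annotated protein-coding genes with the largest spread and no value at 0. Each window covers 250 bases before and 50 after the start site, from RefSeq (GRCm38.p6), as chr2:130575919-130576218 on the plus strand for Oxt and chr2:130582539-130582838 on the minus strand for Avp. Capitals mark TGACCT, searched on both strands, and CACGTG, which reads the same on both. TGACCT is the half-site of many nuclear receptors and CACGTG is the E-box of clock and other factors.
Oxt: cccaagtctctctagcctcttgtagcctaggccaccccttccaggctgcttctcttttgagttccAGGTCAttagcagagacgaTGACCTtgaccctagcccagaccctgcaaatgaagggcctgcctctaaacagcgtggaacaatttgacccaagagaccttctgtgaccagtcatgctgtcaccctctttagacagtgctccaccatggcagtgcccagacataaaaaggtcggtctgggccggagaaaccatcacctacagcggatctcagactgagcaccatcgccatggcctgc
Avp: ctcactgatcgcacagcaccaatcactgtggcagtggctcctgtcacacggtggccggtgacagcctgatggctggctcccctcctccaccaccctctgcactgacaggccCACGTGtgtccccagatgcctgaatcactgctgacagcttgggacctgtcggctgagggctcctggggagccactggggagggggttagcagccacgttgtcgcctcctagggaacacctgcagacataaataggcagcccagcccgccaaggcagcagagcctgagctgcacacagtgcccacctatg
TGACCT matched at 2 places in the Oxt window and at 0 in the Avp window, and 16.3% of 32851 mouse promoter windows of the same length hold it. CACGTG matched at 1 place in the Avp window and 0 in the Oxt window, against 7.15% of all windows. A match of letters is a description and not a site of binding.

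The olfactory bulb list divided the mice in a different way. Doc2g, a synaptic gene of mitral cells, was at 28.3, 22.4 and 12.1 CPM in mice 105, 83 and 102, and between 1.61 and 4.51 CPM in the other 9. Cdhr1, a cadherin of the same cells, was at 34.5, 29.4 and 18.3 CPM in those mice against 2.16 to 7.22 CPM. Eomes, a transcription factor of mitral and tufted cells, was at 10.3, 9.39 and 6.75 CPM against 0.258 to 2.07 CPM. Omp, olfactory marker protein, which comes from the axons of the nose's sensory neurons, was at 11.5, 13.1 and 2.77 CPM against 0.630 CPM or less. These 3 mice were picked out by these same values, so their gap to the other 9 is a description and not a test. The list had 11 genes with a row, and its other members are not given here. The 3 mice were of both sexes and both forms of library name.

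The thalamus, hippocampus and striatum lists moved less. The thalamic score was highest in mouse 82 at 0.94 and in mouse 84, and lowest in mouse 101 at -0.94. Tcf7l2, a transcription factor of thalamic neurons, was at 34.1 CPM in mouse 84 and 31.9 CPM in mouse 82, had a median of 10.6 CPM and was at 2.77 CPM in mouse 101. Shox2, another factor of thalamic neurons that was not in the list, ranged more widely, from 0.127 CPM in mouse 101 and 0.805 CPM in mouse 91 to 24 CPM in mouse 85, with a median of 12 CPM.

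The hippocampal score was also highest in mouse 82, at 1.03. Prox1, a factor of dentate granule cells, was at 51.2 CPM in mouse 82 against a median of 19.9 CPM, and Dsp, a desmosomal gene of the same cells, was at 14.6 CPM against a median of 2.48 CPM. The striatal score was lowest in this mouse, at -0.71, and next in mouse 101. Drd2, the dopamine receptor of indirect pathway neurons, was at 20.4 CPM in mouse 82 and 17.4 CPM in mouse 101 and between 24.1 and 45.4 CPM in the other 10. Penk, the enkephalin precursor, was at 172 and 234 CPM in these mice against 279 to 508 CPM. Ppp1r1b, the phosphoprotein DARPP-32 of both striatal pathways, was at 313 and 383 CPM, against 369 to 638 CPM in the others, so here mouse 85 overlapped with mouse 101.

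Region scores were compared in pairs, among 15 pairs of lists. The striatal score had no relation past the test with that of the cortex layers (r = 0.04, adjusted p = 0.97 by a permutation test, two-sided, n = 12; rho = 0.21, adjusted p = 0.70) or of the cerebellum (r = 0.15, adjusted p = 0.71; rho = -0.19, adjusted p = 0.70, permutation tests). The hypothalamic and pituitary scores did not pass either, with r = 0.01 and adjusted p = 0.98 by permutation (rho = 0.12, adjusted p = 0.72). Leaving out the 2 mice farthest from the median, 82 and 101, changed the last r to 0.52 over 10 mice. The r of the striatum with the cerebellum became -0.57 without these mice, and that with the cortex layers 0.17. The hypothalamic and cerebellar r values thus rest on mice 82 and 101. The pituitary score holds only 3 of its 12 genes and neither Gh nor Prl, so this pair says nothing of the hormone transcripts above.

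The choroid plexus list varied widely, with all 16 of its genes more variable than the median gene of the same abundance. Its score was -1.83 in mouse 104, next lowest in mouse 91, and 0.73 at its highest, in mouse 73. Ttr, transthyretin, was at 49.0 CPM in mouse 104 and 116 CPM in mouse 91 and between 424 and 1050 CPM in the other 10, with a median of 731 CPM. Kcne2, a potassium channel subunit of the choroid epithelium, was at 0.360 and 0.929 CPM in the same mice and at 2.65 to 8.06 CPM in the others. Sostdc1, a secreted antagonist of BMP and Wnt signals, was at 1.71 and 2.35 CPM against 5.53 to 14.5 CPM. Mouse 104 is of the less common library name form, while mouse 91 is not.

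The 10 genes most like Ttr over the mice were Tmem72 (r = 0.978), Sostdc1 (0.972), Kcne2 (0.965), 1500015O10Rik (0.964), Krt18 (0.954), F5, Enpp2, Otx2, Car14 and Kl (0.910). Of these, 6 were in the choroid plexus list, and 8 of the 10 stayed among the 10 closest when a smooth trend of log2 CPM on the length and GC content of transcripts was taken out of each library. Enpp2, autotaxin, which oligodendrocytes also make, varied less, from 203 CPM in mouse 91 to 433 CPM in mouse 73.

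Ependymal cells, which carry motile cilia and line the ventricles beside the choroid plexus, followed in part. Their score was lowest in mouse 104 at -0.62 and highest in mouse 73 at 0.74. Rarres2, the precursor of chemerin, had 2.88 CPM in mouse 104, a median of 5.04 CPM and 15.6 CPM in mouse 103. The choroid plexus and ependymal scores had r = 0.67 (adjusted p = 0.056 over 15 pairs, permutation test, n = 12) and rho = 0.85 (adjusted p = 0.0033 by permutation). Without mice 104 and 91 r was 0.58, and over the 10 mice of the common library name form it was 0.51. The relation therefore passed by rank and not by r, although r passed without mouse 91 (0.66) or mouse 101 (0.77).

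Genes of the meninges and their fibroblasts had a different order. The score was highest in mouse 83 at 0.93 and in mouse 91, and lowest in mouse 101 at -0.84 and in mouse 104. Col1a2, a chain of fibrillar collagen, was at 24.8 CPM in mouse 83, had a median of 12.1 CPM and was at 6.75 CPM in mouse 101. Aldh1a2, a retinoic acid synthase of the meninges, was at 28.3 CPM in mouse 83 and 3.60 CPM in mouse 101. Dcn, decorin, was highest in another animal, mouse 103, at 49.4 CPM, so the members did not all share an order. All 12 members exceeded the median SD of genes of the same abundance. The meningeal and choroid plexus scores had r = 0.35 (adjusted p = 0.41, permutation test; rho = 0.54, adjusted p = 0.14), and r was 0.55 without mice 104 and 91 and -0.08 over the 10 mice of the common library name form.

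Transcripts of red blood cells were low but not absent in these perfused mice. The 4 haemoglobin genes summed to 5.62 CPM in mouse 104, a median of 27.7 CPM, and 151 CPM in mouse 101, which stood well above the next mouse, mouse 82, at 59.2 CPM. Hba-a1 was at 105 CPM in mouse 101, had a median of 15.7 CPM and was at 3.46 CPM in mouse 104. Alas2, the haem-synthesis enzyme of red cells, had 65 counts in mouse 101 and 18 or fewer in any other. Bpgm and Fech, which the red cell list holds and brain cells also express, were far less variable, with SDs of 0.21 and 0.18 on the log2 scale.

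The alpha-globin genes can hardly be told apart by reads. Hba-a2 was listed at 0 in 6 mice and at 51 to 188 counts in the other 6, while Hba-a1 was above 0 in all, and the longest transcripts of the pair share an unbroken run of 415 bases. For that reason the sum is the firmer value, from 3.46 CPM in mouse 104 to 109 CPM in mouse 101. The promoters of the pair are shown to make the likeness visible, from RefSeq (GRCm38.p6) at chr11:32283422-32283721 and chr11:32296242-32296541, both on the plus strand. Capitals mark CCAAT, searched on both strands, a box that lies upstream of many globin genes.
Hba-a1: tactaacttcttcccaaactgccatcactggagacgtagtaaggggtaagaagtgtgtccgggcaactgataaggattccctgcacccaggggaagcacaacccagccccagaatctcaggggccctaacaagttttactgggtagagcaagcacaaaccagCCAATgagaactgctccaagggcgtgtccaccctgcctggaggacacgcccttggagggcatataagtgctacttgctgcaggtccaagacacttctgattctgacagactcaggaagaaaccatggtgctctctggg
Hba-a2: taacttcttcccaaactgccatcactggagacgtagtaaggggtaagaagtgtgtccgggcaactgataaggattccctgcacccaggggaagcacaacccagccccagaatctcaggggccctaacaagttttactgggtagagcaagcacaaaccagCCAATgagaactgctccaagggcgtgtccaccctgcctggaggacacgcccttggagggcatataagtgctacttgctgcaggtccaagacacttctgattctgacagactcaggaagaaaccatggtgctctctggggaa
The windows share an unbroken run of 297 of their 300 bases. CCAAT matched at 1 place in each, and 37.4% of all promoter windows hold it. AGATAA, a letter form of the GATA motif, was searched on both strands too and matched at 0 places, against 11.2% of all windows. Other letter forms of the motif, such as TGATAA, which both printed windows hold, were not searched.

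The red cell score had no relation past the test with that of the choroid plexus (r = 0.34, adjusted p = 0.41, permutation test, n = 12; rho = 0.15, adjusted p = 0.72). Without mice 104 and 91 this r was -0.34, and within the common library name form it was 0.09. Nor did its relation to the white blood cell score pass (r = -0.33, adjusted p = 0.41; rho = -0.13, adjusted p = 0.72, permutation tests), and within the common library name form that r was -0.66 over 10 mice. Of the white blood cell list, 6 of 14 genes had a row in the table, and these summed to between 9.14 and 21.4 CPM. The filter behind the table is not stated, so a gene without a row has no known level. Alb, albumin, a plasma protein made chiefly by the liver, had 0.0700 CPM in mouse 103, a median of 5.49 CPM and 18.8 CPM in mouse 105, and was at 0.382 CPM in mouse 101, where the haemoglobins were highest.

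Most of the large cell types varied little beside these structures. The SD of the score was 0.11 for pan-neuronal genes, 0.12 for oligodendrocytes, 0.13 for microglia, 0.14 for astrocytes and 0.15 for GABAergic neurons, against 1.32 for the hypothalamus, 1.01 for the olfactory bulb, 0.93 for red blood cells and 0.71 for the choroid plexus. Glutamatergic neurons varied more, with a score SD of 0.43 and all 9 genes more variable than the median gene of the same abundance, and endothelium and oligodendrocyte precursors lay between at 0.25 each. Cx3cr1, the fractalkine receptor of microglia, ranged only from 46.5 to 66.3 CPM, and Tmem119, a homeostatic microglial gene, from 13.8 to 20.1 CPM. Oligodendrocyte and pan-neuronal scores had r = -0.34 (adjusted p = 0.41, permutation test; rho = -0.47, adjusted p = 0.21), and r was -0.01 within the common library name form. Microglial and astrocyte scores had r = 0.30 (adjusted p = 0.43; rho = 0.22, adjusted p = 0.70, permutation tests). Endothelial and mural scores, both of vessels, had r = 0.52 (adjusted p = 0.18; rho = 0.61, adjusted p = 0.086, permutation tests), and r was 0.38 within the common library name form. This r was 0.10 without mice 102 and 84, and 0.06 when the trend on length and GC content was removed.

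**Figure D2:**
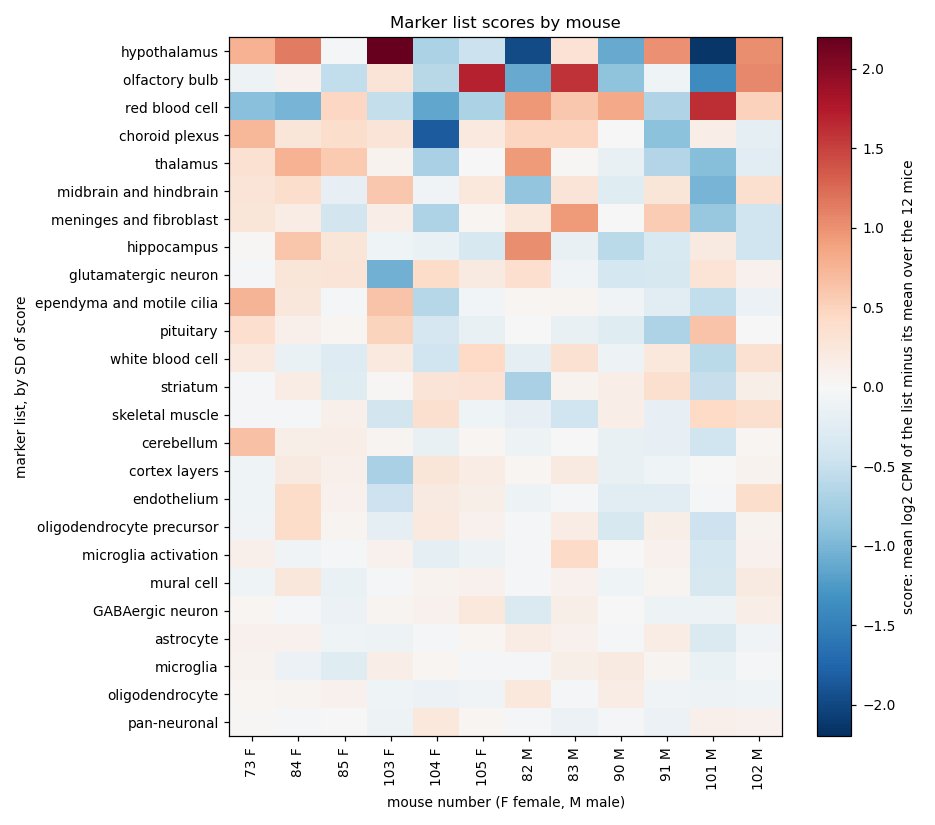
Heat map of the scores of 25 cell type and region lists (rows, ordered by SD) in the 12 mice (columns, F female, M male). Colour gives the mean log2 CPM of a list minus its mean over the mice, from blue (low) to red (high). The hypothalamus, olfactory bulb, red blood cell and choroid plexus rows carry the strong colours, and the pan-neuronal, oligodendrocyte and microglial rows are pale.

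Over all genes, variation between mice was modest. Among 11544 genes with a mean of at least 5 CPM, the median SD of log2 CPM within sex was 0.246, a factor of 1.19, and 5% of genes were below 0.0991 and 5% above 0.647. At the threshold of 5 CPM, counting error alone gives an SD of 0.171 in the shallowest library. Only 80 genes (0.693%) had an SD of at least 1, and 1364 (11.8%) had at least 0.5. The 80 fell to 41 without mouse 103 and to 44 without mice 103 and 90.

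Of the 20 most variable genes, 13 were listed at 0 in at least 1 mouse and 13 had non-whole counts in at least 4 mice, which an estimate gives when it divides reads between similar sequences. They include Gm8210, Gm3892, Gm13298, Gm14440 and Gm8923, predicted genes or pseudogenes, whose SDs of 1.91 to 3.98 are uncertain for that reason. Rn7s1 and Rn7s2, copies of the signal recognition particle RNA, were listed at 0 in 3 and in 5 other mice, and their sum was 474 CPM in mouse 104, 69.7 CPM in mouse 102 and 3.08 to 21 CPM in the rest. Sowahc was listed at 0 in mice 104 and 83 and at 14.9 to 25.3 CPM in the other 10, with whole counts throughout. The named genes with no value at 0 among the 20 were Oxt, Avp, Pmch, Alb, Irs4, Rn7sk and Shox2. All 20 still had an SD of at least 1 when the trend on length and GC content was removed.

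At the other end, 10 genes had an SD of about 0.05 on the log2 scale. They were Ercc6l2, Pde12, Arih2, Otud5, Lztr1, Ist1, Ube2q1, Clint1, Usp38 and Inpp1. Lztr1, an adaptor of a ubiquitin ligase, ranged from 104 to 120 CPM, and Ercc6l2, a DNA repair helicase, from 19.4 to 21.5 CPM. Genes used as references in PCR had a median SD of 0.18 over 16 members, and 6 of them were more variable than the median gene of the same abundance.

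**Figure D3:**
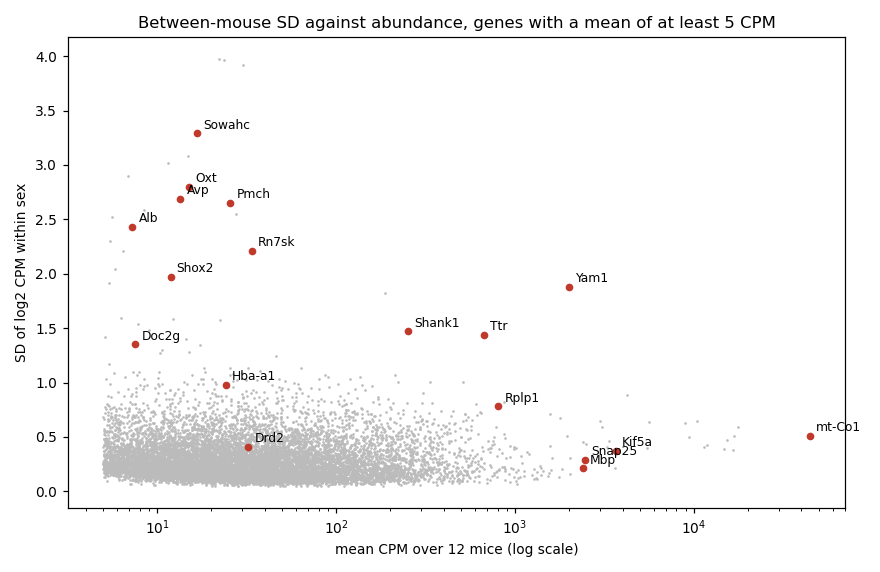
SD of log2 CPM within sex (y axis) against mean CPM on a log scale (x axis) for the 11544 genes with a mean of at least 5 CPM, with named genes in red. Oxt, Avp, Pmch and Alb stand far above genes of the same level, while Mbp, Snap25 and Kif5a lie below an SD of 0.5.

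The largest shared pattern of variation moved with transcript length, and with GC content as well. A principal component analysis of 14528 genes with a mean of at least 1 CPM put 50.3% of the variance on the first component, 13.4% on the second and 8.62% on the third. For each library a length slope was computed, the slope over genes of log2 CPM (minus the gene's mean) on log2 transcript length, where a positive value means that long transcripts are high in that library. Slopes ran from -0.333 in mouse 103 and -0.279 in mouse 90 to 0.242 in mouse 84, with an SD of 0.173. At a slope of -0.333, each doubling of transcript length goes with a level lower on the log2 scale by the size of the slope.

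The first component followed this slope closely, with r = 0.994 (p = 1e-05, permutation test, n = 12, the smallest p that the permutations can give) and rho = 0.993 (p = 1e-05 by permutation). Without mice 103 and 90 r was 0.982, and within the common library name form it was 0.994. Both measures are computed from the same log2 CPM values of the same libraries, and the sign of the component was set to match the slope. The r is therefore a description, and its p is not evidence of a link between independent measures. Without mice 103 and 90 a newly computed first component held 33.5% of the variance and still had a size of r of 0.965 with the slope. The slope on GC content moved with the slope on length (r = 0.937) and with the first component (r = 0.964). The mitochondrial share moved against the slope on length (r = -0.734). The part of GC content and of the mitochondrial share in this pattern was not tested.

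Gene lists at the extremes of length moved with it. The lists of long genes and of short ribosomal and respiratory chain genes lie at the ends of the length scale that defines the slope. Their r is therefore in part built in, and it is a description. The median length of a list did not by itself set its r. The hypothalamic list, with a median of 1043 bases, had r = -0.05, and the nuclear long noncoding RNAs, with 6922 bases, had r = 0.56. The mitochondrially encoded genes are shorter still (median transcript of 784 bases), and the cortex layer genes are long (6037 bases). The r of these lists with the slope, given below, is limited in the same way. Genes for long synaptic and scaffold proteins, with a median transcript of 12938 bases, had r = 0.98 with the slope, and their score ran from -1.37 in mouse 103 to 0.90 in mouse 84. Shank1, a scaffold of the postsynaptic density, was at 19.3 CPM in mouse 103 and 64.8 CPM in mouse 90, had a median of 264 CPM and was at 555 CPM in mouse 84. Bsn, bassoon, which organises the presynaptic active zone, went from 30.5 CPM in mouse 103 to 276 CPM in mouse 84.

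Genes for cytosolic ribosomal proteins, with a median transcript of 964 bases, went the other way, with r = -0.99 and a score from -0.76 in mouse 84 to 1.00 in mouse 103. Rplp1 was at 1920 CPM in mouse 103 and 317 CPM in mouse 85, around a median of 658 CPM. Nuclear genes of the respiratory chain, which are short as well, also had r = -0.99, and all 37 of them and all 35 ribosomal genes exceeded the median SD of genes of the same abundance. The scores of these 2 lists had r = 0.99 with each other (adjusted p = 7.5e-05, permutation test; rho = 0.99, adjusted p = 0.00015). The long list against the respiratory chain had r = -0.95 (adjusted p = 7.5e-05; rho = -0.90, adjusted p = 0.0019, permutation tests), which fell to -0.45 and lost its call when the trend on length and GC content was removed.

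**Figure D4:**
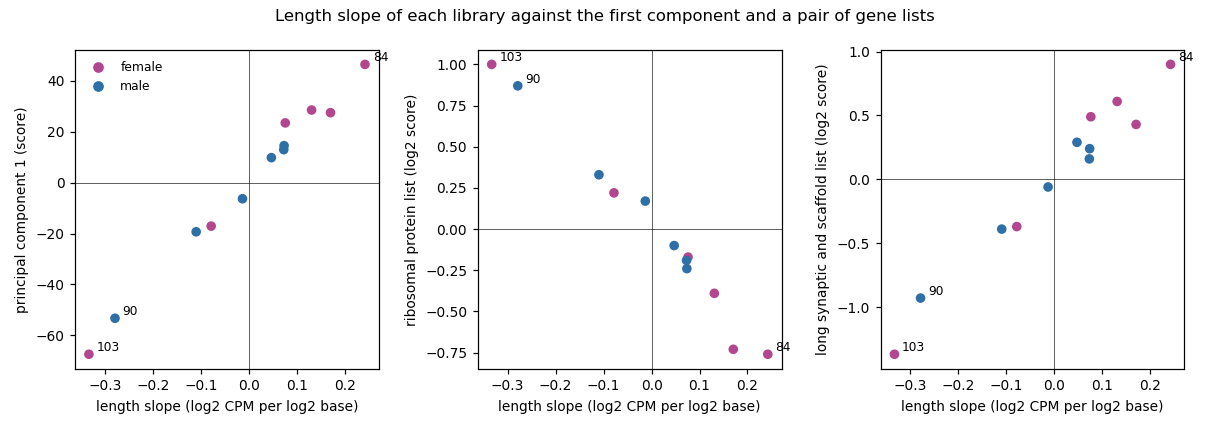
Length slope of each library (x axis, log2 CPM per log2 base) against the score on the first principal component (left), the ribosomal protein score (middle) and the score of long synaptic and scaffold genes (right), with a point for each of the 12 mice. Mice 103 and 90 lie at the low end of the slope and mouse 84 at the high end in each panel.

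Of the 36 lists tested against the slope, 11 passed an adjusted p of 0.05 (Pearson's r, permutation test, 100000 resamples), 7 with a positive and 4 with a negative sign. The lists at the ends of the length scale are included. Genes outside the lists moved with the slope too, so the count cannot be read as particular to these lists. With each gene scaled to unit variance, the first component held 50.4% of the variance and had a size of r of 0.995 with the slope. The share of all genes, or of lists drawn from all genes, that would pass was not computed. Besides the long genes, the positive lists were the circadian clock (r = 0.93, adjusted p = 0.00018; rho = 0.92, adjusted p = 0.00079), immediate early genes (r = 0.88, adjusted p = 0.0012; rho = 0.83, adjusted p = 0.0057), the cortex layers (r = 0.86, adjusted p = 0.00014; rho = 0.85, adjusted p = 0.0041), endothelium (r = 0.83, adjusted p = 0.004; rho = 0.87, adjusted p = 0.0026), oligodendrocyte precursors (r = 0.82, adjusted p = 0.0047; rho = 0.78, adjusted p = 0.015) and glutamatergic neurons (r = 0.78, adjusted p = 0.011; rho = 0.58, adjusted p = 0.14), all by permutation tests. The last of these lost its call without mouse 103 (r = 0.62) and fell to r = 0.38 without mice 103 and 90. The negative lists beside the ribosomal and respiratory chain genes were the reference genes (r = -0.93, adjusted p = 0.00014; rho = -0.92, adjusted p = 0.00036) and the mitochondrially encoded genes (r = -0.72, adjusted p = 0.029; rho = -0.78, adjusted p = 0.016, permutation tests). The mitochondrially encoded list lost its call without mouse 84 (r = -0.65), 90 (-0.65) or 104 (-0.70). All 11 kept their sign without mice 103 and 90, and within the common library name form, where r ran from 0.77 to 0.98 for the positive lists and from -0.74 to -0.99 for the negative ones. Among the lists that did not pass, the nuclear long noncoding RNAs had r = 0.56 over all mice and 0.87 within that form.

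The lists of small structures with the widest spread did not pass this test. The r with the slope was -0.05 for the hypothalamus (adjusted p = 0.94; rho = 0.10, adjusted p = 0.87, permutation tests), 0.22 for the olfactory bulb (adjusted p = 0.73; rho = 0.27, adjusted p = 0.73), -0.15 for the choroid plexus (adjusted p = 0.90; rho = -0.07, adjusted p = 0.87) and -0.23 for red blood cells (adjusted p = 0.73; rho = -0.48, adjusted p = 0.28). When the trend on length and GC content was removed, the SD of the hypothalamic score went from 1.32 to 1.33 and that of the choroid plexus stayed at 0.71, while that of the long genes dropped from 0.66 to 0.09 and that of the respiratory chain from 0.44 to 0.18. The ribosomal score kept an SD of 0.31, from 0.55 before, the immediate early score 0.37 from 0.48 and the endothelial score 0.24 from 0.25. Removing the trend removed the shared pattern only in part. The first component of the adjusted values still had a size of r of 0.976 with the length slope as first measured, and r with that slope was -0.98 for the ribosomal list, -0.95 for the respiratory chain, -0.77 for reference genes, 0.81 for endothelium, 0.80 for immediate early genes and 0.76 for the circadian clock. Other lists that had passed fell further, to 0.60 for the long genes and 0.59 for glutamatergic neurons. The cortex layers fell to 0.34 and oligodendrocyte precursors to 0.18. The mitochondrially encoded list changed sign, from -0.72 to 0.26. After that step the median SD of all genes was 0.18, and 40 genes had an SD of at least 1, of which 39 were among the 80.

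**Figure D5:**
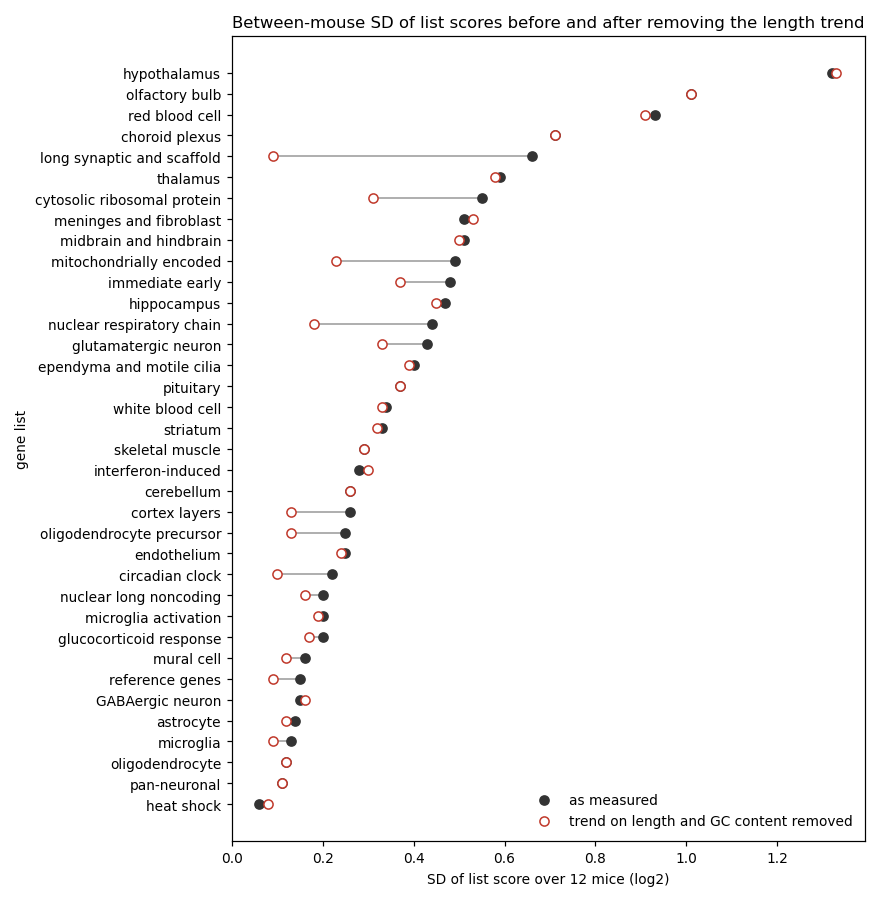
SD over the 12 mice of the score of 36 gene lists (rows), as measured (filled points) and after the trend of each library on transcript length and GC content was removed (open points). The points of the hypothalamus, olfactory bulb and choroid plexus coincide or nearly so, and those of the long synaptic genes, the respiratory chain and the ribosomal proteins lie far apart.

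The second component had hypothalamic genes at its high end and red cell and Y-linked genes at its low end. Other lists moved with it too: its r was 0.944 with the midbrain and hindbrain score and 0.93 with the hypothalamic score. It was 0.691 with ependyma, 0.663 with white blood cells, 0.661 with the cerebellar list and 0.61 with the olfactory bulb. On the negative side it was -0.761 with red blood cells, -0.58 with skeletal muscle and -0.573 with Y-linked genes. Its highest loadings included Oxt, Avp, Irs4, Pmch, Gabrq, Trh and Baiap3, beside Xist and Rn7s2. Its lowest included Hba-a1 beside the Y-linked genes. Mouse 103 lay at 28.4 and mouse 101 at -37.3 on this component. The third had Shox2, Ttr, Alb and Lhx9 near its high end and Rn7s2, Rn7sk and Yam1 near its low end, where mouse 102 lay at -22.8 and mouse 91 at -18.8.

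Immediate early genes, which neurons switch on within minutes of activity, varied between mice by more than most genes of their level, as 19 of the 20 members did. Arc, which trims synaptic receptors, was highest at 253 CPM in mouse 105 and 246 CPM in mouse 104, had a median of 93.8 CPM and was at 28.3 CPM in mouse 103. Fos was at 28.1 CPM in mouse 104, a median of 15.5 CPM and 8.69 CPM in mouse 90. Egr1, a zinc-finger factor, was at 243 CPM in mouse 105 and 40.3 CPM in mouse 103. Among the genes most like Fos over the mice were Arc (r = 0.953) and Nr4a1 (0.949), and 1001 genes had an r of at least 0.8 with it. Mice 103 and 90, which had the lowest length slopes, also had the lowest scores of this list, and the part of the slope in these levels was not tested.

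Genes induced by glucocorticoids followed the immediate early genes, with r = 0.73 (adjusted p = 0.016 over 15 pairs, permutation test, n = 12) and rho = 0.83 (adjusted p = 0.0057). The r was 0.67 without mice 103 and 90 and 0.71 within the common library name form, and it no longer passed without mouse 90 (0.68) or with the median over a list's genes in place of the mean (0.37). Only 4 of the 15 pairs passed by r, the last being the mitochondrially encoded genes with the nuclear genes of the respiratory chain (r = 0.71, adjusted p = 0.037; rho = 0.82, adjusted p = 0.0057, permutation tests). That pair turned to -0.31 when the trend on length and GC content was removed, and it lost its call with medians over genes (0.64) or without mouse 84 (0.64), 90 (0.64), 83, 104 or 105 (0.71 each). Plin4, a lipid droplet gene, was at 9.80 CPM in mouse 105 and between 1.14 and 3.69 CPM in the other 11. Fkbp5, a chaperone of the glucocorticoid receptor, had a range of only 17 to 31.6 CPM, and Errfi1, a brake on epidermal growth factor signalling, ranged from 24.3 to 28.8 CPM. Heat shock genes were the most even list of all, with a score SD of 0.06.

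Sex was the only labelled contrast within the set. With edgeR's quasi-likelihood test, 6 of 16039 genes passed an adjusted p of 0.05 (Benjamini-Hochberg), which is 0.0374% of those tested, and 401 had an unadjusted p below 0.05. That is a smaller share than the 0.05 expected if no gene differed. The 401 became 1974 without mouse 103 and 240 without mouse 90, with the same 6 genes passing. The Y-linked genes with a row in the table all passed. Kdm5d, a histone demethylase, was at 21.8 to 25.9 CPM in males and at 0 to 0.0899 CPM in females, with an adjusted p of 7.9e-10 by edgeR. Ddx3y, Eif2s3y and Uty passed with adjusted p = 5.6e-07 by edgeR, and Gm29650, a Y-linked transcript, with 7.0e-06. Xist, the RNA that silences one X chromosome in females, was at 257 to 908 CPM in females and 0.248 to 3.31 CPM in males. Females 103 and 104 had a few counts of the Y-linked genes, at most 11 for any gene, where the other 4 females had 0 or 1.

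No autosomal gene passed by edgeR, where the lowest adjusted p among them was 0.97. DESeq2 called 11 genes, 4 of them autosomal (Hbb-bt, Tfrc, Rpl35a-ps4 and Gm21598), and Kdm6a. With the length slope as a covariate edgeR called 8, the added genes being Eif2s3x and the autosomal clock gene Nr1d1. Of the 39 lists, 37 had no member past the test. Kdm6a, an X-linked demethylase that escapes silencing, was at 28.4 to 32.1 CPM in females and 22.7 to 25.9 CPM in males, lower in males by -0.33 ± 0.069 (log2 fold change, SE; adjusted p = 0.77 by edgeR). Its groups did not overlap, and every female was above every male for 11 genes (0.0686%), with every male above every female for 15 (0.0935%). Eif2s3x, a translation factor that also escapes, had ranges that met, 193 to 289 CPM in females and 147 to 199 CPM in males, with a log2 fold change of -0.47 ± 0.12 (SE; adjusted p = 0.97 by edgeR). The haemoglobin genes summed to a median of 16.3 CPM in females and 43.1 CPM in males, with overlapping ranges, and Hba-a1 had a log2 fold change of 1.77 ± 0.51 (SE; adjusted p = 0.97 by edgeR).

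Other sets of genes moved together on a smaller scale. Of the 100 genes closest to 10 of the 12 seed genes, only 33 stayed among the 10 closest when the trend on length and GC content was removed, including 3 for Mbp, 1 for Cx3cr1, 1 for Fkbp5 and 2 for Foxj1, so most of these likenesses depend on that step. Gabra6 was closest to Cnpy1 (r = 0.977) and Cbln3 (0.973), both of the cerebellum, with the next gene at 0.837, and mice 73 and 85 were far above the other 10 in Gabra6. Drd2 was closest to Rhbdl3 (0.948), Kazn, Syt6, Tcerg1l and Pde10a (0.908), of which Pde10a is the phosphodiesterase of striatal neurons. Col1a2 was closest to Itih2 (0.955), Islr, Thbd, Eln and Foxc1 (0.931), which include elastin and a meningeal transcription factor. Mbp was closest to Pmp22 (0.947), another myelin protein gene, followed among others by mt-Nd5 (0.918), mt-Nd4 (0.915), mt-Nd1 (0.901) and Mobp (0.892), and Pmp22 was not among the 10 closest with the trend removed. Hbb-bs was close to Hba-a1 (0.947), and only 5 genes reached an r of 0.8 with it. Cx3cr1 was closest to Clu (0.929) and Itgam (0.904), and Foxj1, the master factor of motile cilia, had the ciliary dynein gene Dnah12 at 0.920, none of which stayed with the trend removed. Gh had no gene above Mbd4 at 0.872. Fkbp5 was closest to Gm13394 (0.921) and Entpd2 (0.919).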

How the data were processed

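RNA from 12 PBS-treated brains was read from a gene table of the series. The authors made the deposited values, estimated counts per gene, with STAR and Salmon (nf-core/rnaseq) on GRCm38. The kit named in the labels differs from that of the study's methods, so whether counting kept strand is uncertain and antisense or overlapping genes (Gm3892, Gm13298) may share reads. Of these counts 90.5% were within 0.01 of a whole number, and they were rounded for tests. The table had 16318 genes, 99.5% with a length in GENCODE M21. A further 53 columns, of libraries that matched no sample here or of CPM, were not used. Depth was 14917171 to 36207536 counts a library, and errors are spreads between mice. Each sample is the library of a separate mouse, so differences between animals, dissections and library preparations cannot be told apart. The p-values of the sex test rest on the spread between these libraries. Those of r and rho come from shuffling the 12 mice.

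Scaling was by TMM in edgeR 4.0.16 (R 4.3.3), with filterByExpr (16039 genes kept, 279 removed), log2 CPM used a prior count of 2, and the common biological coefficient of variation was 0.241. The sex test was edgeR's glmQLFTest, with DESeq2 1.42.0 and limma 3.58.1 (voom) as alternatives. The edgeR step was tested on simulated data: of 200 genes changed 2-fold among 16039, 144 were recovered with 5 false calls. Correlations used 100000 permutations, two-sided, with Benjamini-Hochberg adjustment. The trend on length and GC content was a loess fit (span 0.5) to each library. Mouse and library numbers are those of the labels.

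Named genes were the 15 most abundant by CPM and per kilobase, the 20 most and 10 least variable, the 10 highest and lowest loadings of each of the first 3 components (mean of at least 5 CPM), for each of 39 lists the 3 most abundant and 2 most variable members, the sex-linked list members, the 10 autosomal genes with the lowest p and the 10 genes most like each of 12 seed genes. Cerebellar, pituitary, hypothalamic, olfactory and other region members outside that rule were named after their values were seen. A few genes that the rule names are not reported here. The members and lists were chosen with earlier results of these data known.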

Additional observations from a re-analysis of the deposited data

Results flagged for a closer look

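Values were compared within each sex (6 mice) by the gap of the extreme mouse to its nearest neighbour, divided by the range of the group. A ratio above Dixon's critical value for 6 values stood out, and 10 of 116 such comparisons did, where chance gives about 1 in 20 for independent comparisons. These comparisons are not independent, because many of the measures move together, so the count is a description and not an excess over chance.

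Female mouse 103 accounted for 4 of them. Its share of counts in ribosomal protein genes was the highest of the females, at 2.12% against 0.7% to 1.21% (ratio 0.641). Its glutamatergic neuron score was the lowest, at -1.05 against -0.05 to 0.41 (ratio 0.684), with Slc17a7, the vesicular glutamate transporter of the cortex, among the members. Its cortex layer score was the lowest, at -0.71 against -0.1 to 0.26 (ratio 0.633), as was its circadian clock score, at -0.49 against -0.01 to 0.26 (ratio 0.651). This mouse had the lowest length slope, whose part in these values was not tested.

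Mouse 104 had the lowest choroid plexus score of the females, at -1.83 against 0.21 to 0.73 (ratio 0.796), and the lowest Ttr, at 5.62 against 9.38 to 9.96 on the log2 CPM scale (ratio 0.866). Its share of counts in Yam1, which overlaps ribosomal RNA, was the highest at 1.17% against 0.02% to 0.08% (ratio 0.945). In male mouse 102, which has the same form of library name, that share was 0.79% against 0.03% to 0.09% (ratio 0.922), and the endothelial score was 0.38 against -0.23 to -0.04 (ratio 0.692). Female mouse 85 had the highest Gh, at 1.67 against -3.72 to -2.21 on the log2 CPM scale (ratio 0.72), where the other females lay near the floor set by the prior count.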

How the results depend on the processing

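The counts of variable genes moved most. The 80 genes with an SD of at least 1 became 162 at a minimum of 1 CPM, 293 with no filter and 40 with the trend on length and GC content removed. With alternatives chosen after seeing the data, they were 44 without mice 103 and 90 and 38 also without 104 and 102. The median SD was 0.298, 0.18, 0.187 and 0.19 with no filter, the trend removed, and those mice left out. Of the 20 most variable genes 13 remained at a minimum of 1 CPM and 11 with no filter. The share of the first component was 59.4% at a minimum of 5 CPM, 29.9% with the trend removed, 33.5% without mice 103 and 90 and 39.7% without the 4 mice, and the SD of the slope was 0.108 and 0.119 without those mice. Pairs of lists past the test were 2 with medians over genes and 2 with the trend removed, where the mitochondrially encoded and nuclear respiratory chain pair turned from 0.71 to -0.31. Of 100 co-varying genes 33 remained with the trend removed. Sex gave 11 genes by DESeq2, 6 by voom, and 0 with at least 10 counts in every mouse (349 at an unadjusted p below 0.05 by edgeR), a filter that removes Y-linked genes and Xist. The cause of the other changes was not tested.

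Leaving out each mouse in turn gave 41 to 97 genes with an SD of at least 1, a median SD of 0.208 to 0.255, 17 to 20 of the 20 most variable genes, slope SDs of 0.145 to 0.182, 10 to 12 lists, 2 to 5 pairs, 45.4% to 54.1% on the first component, r of 0.988 to 0.997 with the slope and 6 to 6 sex-linked genes. Other results of lists kept their side of the threshold in 532 of their alternatives, with 3 stronger and 5 weaker, and pairs in 228, with 2 stronger and 9 weaker. No paired analysis was possible because each mouse has a number of its own and no number is shared between groups. Genes under 5 CPM are limited by counting error.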
